A study of Mus musculus with 8 samples.

Results

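The genes described here are those that were already lower in ES cells positive for both Venus and SSEA-1 (V+S+) than in ES cells positive for SSEA-1 alone (V-S+). They were chosen by these very values: a probe was taken where the deposited log10 value of V+S+ was below that of V-S+ by 0.176 or more, a difference of 1.5-fold, in clone 5.1 and again in clone 16.1, and where the V-S+ signal was well above background in every scan. Of 25164 probes in the authors' table, 17404 had such a V-S+ signal and 375 of these, 2.15%, were past the cut in both clones. Rhox5, Dppa3, Spic, Zfp371 and 4 solute carrier genes were left out by name, which gave 367 members. A symbol was known for 132 of them, and the other 235 are known by probe only. The symbols come from a list of probes that the study called different on these same 8 samples, so that the named members are also a selection on all 4 fractions. The difference between V+S+ and V-S+ is therefore a description throughout, with no test. Just inside the cut lay Mip, at -0.1771 in clone 5.1 and -0.3525 in clone 16.1 on the log10 scale, RP23-330D3.5 (-0.1775 and -0.3064) and Prrc1 (-0.1783 and -0.3106). Just outside lay Epx (-0.1754 and -0.4601), Bhmt2 (-0.1747 and -0.45) and Rps6ka5 (-0.1948 and -0.1729).

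All 8 samples were HV mouse ES cells (written HIV in the labels), strain 129/Ola, with a knock-in of the Venus fluorophore gene at Hex, carried by every sample. Each of the clones 5.1 and 16.1 was plated at 200000 cells per ml, grown for 24 hours in LIF with serum and sorted by flow cytometry for Venus (V) and the surface antigen SSEA-1 (S), which gave the fractions V-S+ and V+S+ and, without SSEA-1, V-S- and V+S-. A fraction thus has 2 samples, 1 per clone. Each clone lay on its own slide, and clone and slide cannot be told apart. Every array set the sample (Cy3) against a universal mouse reference RNA (Cy5), and values below are log2 ratios of sample to reference after loess normalization, clone 5.1 first. The 2 clones are separate lines of 1 design, so that p-values measure the spread between 2 lines. Between 28316 and 29671 probes per sample were well above background, no spot was saturated, and the repeat scans of an array differed with an SD of 0.0563 to 0.0779.

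Hex is a transcription factor gene that marks primitive endoderm, the early lineage that lines the blastocyst cavity and gives rise to extraembryonic endoderm. ES cells in serum and LIF are a mixture, and cells with Venus are those with activity at the Hex locus. SSEA-1 is a carbohydrate carried by undifferentiated ES cells and lost on differentiation. Genes of the oocyte, the cleavage embryo and the germline are often active in naive ES cells, among them the X-linked Rhox homeobox genes, which are known for their reproductive expression. The Oas1 genes belong to the family of 2'-5' oligoadenylate synthetases, interferon-induced sensors of double-stranded RNA, some copies of which are inactive as enzymes.

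The Rhox4 probes are shown first because 5 of the members are copies of a repeated gene. The files list the probes as unmapped and give no exon or UTR for them. All 5 probes hold the same stretch of 28 bases, shown 5' to 3', with capitals where a base differs from the Rhox4a probe and positions counted from 1 at the 5' end of the stretch:
Rhox4a: ttattgcatctctattccctaagcattt
Rhox4c: ttattgcaActctattccctaagcattt
Rhox4d: ttattgcatctctattccctaagcattt
Rhox4f: ttattgcatctctatCccctaagcattt
Rhox4g: ttattgcatctctatCccctaagcattt
The Rhox4c probe carries T9A, and the Rhox4f and Rhox4g probes carry T16C. Between any 2 of these probes the longest identical run was 16 to 56 of 60 bases, so their signals can come from the same transcripts and do not count as 5 separate genes. A further unnamed probe, Z00025464-1, has the same 28 bases as Rhox4a and is not a member. The Rhox2a, Rhox6 and Rhox9 probes share at most 7 bases with any other Rhox member. Of all 367 members, 9 share a run of 20 bases or more with another member.

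The Oas1a and Oas1d probes share a shorter run, in capitals in the 30 bases around it:
Oas1a: caaagtaTTATGACTTTCAACACcaggagg
Oas1d: acatggtgTTATGACTTTCAACACgagatc
The run is 16 bases long, and no other pair of Oas1 members shares more than 7 bases.

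The members were lower in both Venus-positive fractions and stood at about the V-S+ level in V-S- cells. Set against V-S+, the median difference of V+S+ was -0.38 (clone 5.1) and -0.62 (clone 16.1), that of V-S- 0.05 and 0.01, and that of V+S- -0.28 and -0.53. By the authors' values, on which the members were chosen, the medians of V+S+ against V-S+ were -0.76 and -1.48 on the log2 scale. These comparisons share V-S+ or V+S+ arrays, on which the members were chosen, and only their values are given. All 4 V- samples lay above all 4 V+ samples for 258 of the 367 members and for 12.3% of all 29484 probes tested, and nothing is read from this, since it includes the arrays behind the choice. The lowest of the 4 fraction means was that of V+S+ for 278 members and that of V+S- for 85, against 6010 and 8956 of all probes, an order that the choice of low V+S+ values largely fixes. The highest was that of V-S- for 218 and that of V-S+ for 146. By loess values 85 members were lower in V+S+ than in V-S+ by more than 1.5-fold in both clones; by the authors' values all 367 are, since that cut chose them. Most members were dim, and 299 of the 367 lay among the 14742 dimmer of the 29484 probes tested.

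**Figure D1:**
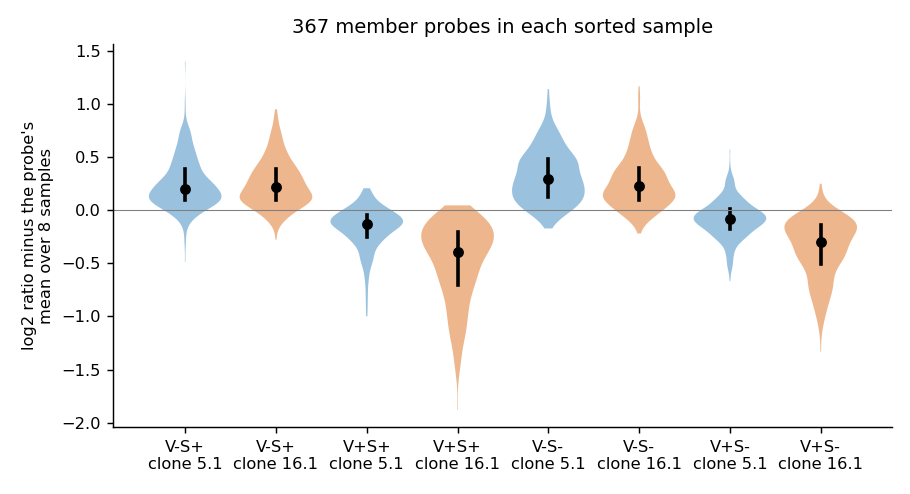
Log2 ratio of each of the 367 members less its own mean over 8 samples (y axis) in each sorted sample (x axis), with clone 5.1 in blue and clone 16.1 in orange; shapes show the distribution, points the median and bars the quartiles. The medians lie between 0.2 and 0.29 in the 4 V- samples and between -0.39 and -0.08 in the 4 V+ samples, with lower values in clone 16.1; the difference between V+S+ and V-S+ chose the members.

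In V-S+ 78.2% of the members in clone 5.1 and 79.0% in clone 16.1 had a ratio above 0, against 50.8% and 51.0% of the 27865 tested probes that were above background in all V-S+ files. High V-S+ values on these arrays took part in the choice of members, so these shares are a description of what was chosen. Their probes had the base composition of the array, with a median GC content of 45% for members and for all probes tested.

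The difference between V+S- and V-S- rests on arrays that the choice did not use, and here 65 of the 367 members fell and none rose (limma, all 8 samples, FDR 0.05 and more than 1.5-fold). Over all 29484 probes 440 fell, 1.49%, and 1858 rose. The spread in this fit comes from all 8 samples, those behind the choice included; a fit of only the V-S- and V+S- samples called 63 members and 420 of 29486 probes lower. The median difference was -0.48 for the members and 0.01 for all probes, and 358 members were below 0 against 48.6% of all probes. In bulk samples fewer cells of a type and less RNA per cell cannot be told apart. Among the named members 64 of 132 fell, with a median of -0.68. Of the 235 unnamed members 1 passed the test and 84 had an unadjusted p under 0.05, with a median of -0.32 and 226 below 0. Names were given to probes that the study called different on these same values, so the split into named and unnamed is selected in opposite directions and neither group is an independent check.

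With clone as a block, which uses the pairing of fractions within a line, 139 members fell, 83 named and 56 unnamed, against 980 of all probes, 3.32%. Both V-S- samples lay above both V+S- samples for 300 members and for 30.1% of all probes. The count was 0 by limma once V-S- of clone 5.1, V-S- of clone 16.1 or V+S- of clone 16.1 was left out, with 143, 149 and 107 members at an unadjusted p under 0.05. It was 43 without V+S- of clone 5.1 and 39 without V-S+ of either clone; a lone sample left in a group is taken to vary like the others. The split of calls over all probes depended on the scaling: 19.1% of all calls were falls here, 3.58% after median centring, which put the median of all probes at 0.13, 34.0% by Feature Extraction's own processed signals, 35.6% by Cy3 without the reference and 30.6% by the authors' values.

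**Figure D2:**
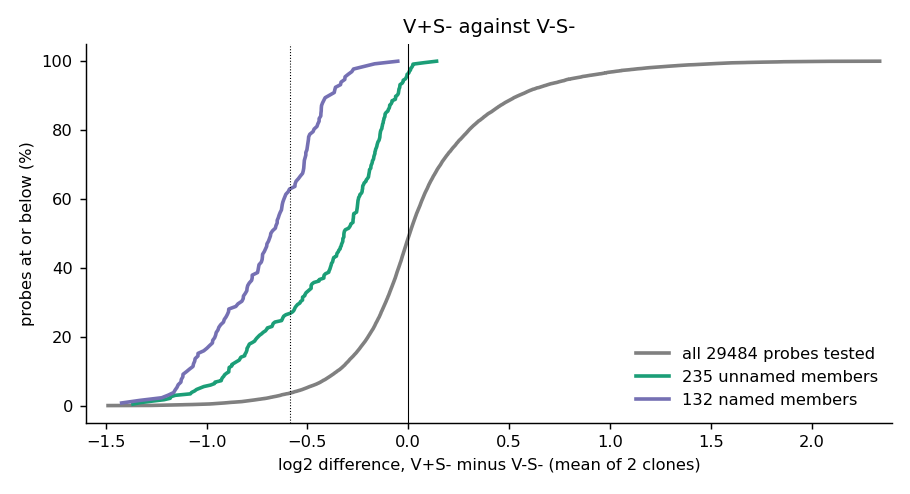
Share of probes in percent (y axis) at or below a given log2 difference of V+S- minus V-S- (x axis, mean of 2 clones) for all 29484 probes tested (grey), the 235 unnamed members (green) and the 132 named members (violet); the dotted line marks a 1.5-fold fall. The curves of the members lie to the left of the curve of all probes, with medians of -0.68 for the named members, -0.32 for the unnamed members and 0.01 for all probes.

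The differences were larger in clone 16.1 than in clone 5.1. V+S- minus V-S- had a median of -0.36 in clone 5.1 and -0.55 in clone 16.1 over the members, and 287 of the 367 were lower by more in clone 16.1, against 14685 of 29484 probes in all. In the comparison that chose the members, 311 were lower by more in clone 16.1, against 13297 of all 29484 probes. Each value behind this rests on 1 sample, so the contrast of the clones has no replicate check.

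**Figure D3:**
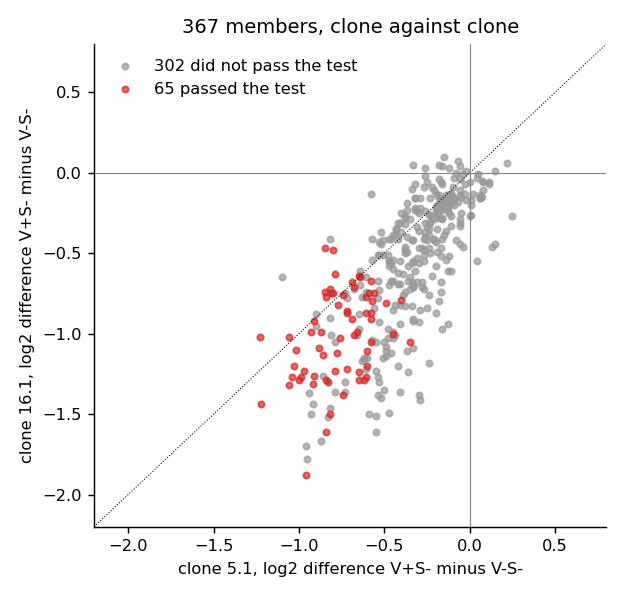
Log2 difference of V+S- minus V-S- in clone 5.1 (x axis) and clone 16.1 (y axis) for the 367 members, with the 65 that passed the test in red and the others in grey; the dotted line marks equal differences. Most points lie below the line, since 287 members were lower by more in clone 16.1.

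Markers of other cell states moved in the same comparison. A marker could be named only where the study called its probe different on these same 8 samples. Markers without a difference thus could not be counted, and the naming largely fixes these counts. Of all 29484 probes 1858 rose and 440 fell. Of the primitive endoderm list 9 of 20 genes could be named, 8 of these 9 rose from V-S- to V+S-, and their mean log2 ratio was -1.49 to -1.43 in V-S- and -0.34 to -0.27 in V+S-. Of the fibroblast list 5 of 11 could be named, all 5 rose, and their mean ratio was -4.41 to -4.18 in V-S- and -2.87 to -2.27 in V+S-. All 9 and all 5 were above background in every file, and none was absent. For trophectoderm 3 of 4 named genes rose, for neuroectoderm 4 of 7 rose and 2 fell, and for mesoderm 1 of 2 rose. Of 5 named pluripotency genes 1 fell, and 3 with clone as a block, which also called 1 trophectoderm gene lower; the pluripotency genes' mean ratio was 1.22 to 1.30 in V-S- and 0.54 to 0.71 in V+S-. The part of these cells in the members' values was not tested. Fut9, an enzyme that makes SSEA-1, read 0.85 and 0.95 in V-S+, 0.72 and 0.88 in V+S+, 0.41 and 0.62 in V-S- and 0.10 and 0.23 in V+S-. Both S+ fractions were above both S- fractions for it.

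The Rhox cluster gave 8 named members, and 6 of these fell from V-S- to V+S-, beside 48.5% of all named members. These were Rhox2a and the Rhox4 probes, and the Rhox4 probes do not count as separate genes. With clone as a block all 8 fell, beside 62.9% of all named members. No other gene of the Rhox list was named, and Rhox5 is left out by the rule. Rhox4d read 1.07 and 1.25 in V-S+, 0.04 and 0.32 in V+S+, 1.59 and 1.58 in V-S- and 0.36 and 0.55 in V+S-. The V- and V+ samples did not overlap, as for 118 of the 132 named members and 12.3% of all probes tested. This includes the arrays behind the choice, and nothing is read from it. The fall from V-S- to V+S- was -1.13 ± 0.12 (SE, n = 2 per fraction, adjusted p = 0.0113). Rhox2a read -0.45 and -0.04 in V-S+, -1.74 and -1.48 in V+S+, -0.03 and -0.05 in V-S- and -1.06 and -1.26 in V+S-. From V-S- to V+S- it fell by 1.12 ± 0.16 (SE, adjusted p = 0.0145). Rhox4a, Rhox4g, Rhox4f and Rhox4c, which share sequence with Rhox4d, differed by -0.81, -0.77, -0.71 and -0.64, each past the test. The non-member probe with the Rhox4a stretch differed by -0.84 (adjusted p = 0.0218).

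In V+S- every Rhox member lay closer to its V- level than it did in V+S+, in each clone. The mean step up from V+S+ to V+S- was 0.48 for Rhox6, 0.49 for Rhox9 and 0.45 for Rhox2a. For the Rhox4 probes, which share sequence, it was 0.17 to 0.31. Low V+S+ values took part in the choice of members. This step was upward in both clones for 200 of the 367 members and downward in both for 47. Rhox6 read 1.34 and 1.25 in V-S+, 0.49 and 0.48 in V+S+, 1.80 and 1.35 in V-S- and 1.25 and 0.68 in V+S-. Rhox9 read 0.92 and 0.82 in V-S+, 0.01 and 0.03 in V+S+, 1.43 and 1.00 in V-S- and 0.86 and 0.16 in V+S-. In clone 5.1 the V+S- value of both genes came close to V-S+, and in clone 16.1 it stayed low. From V-S- to V+S- they differed by -0.61 ± 0.21 and -0.70 ± 0.24 (SE), with adjusted p = 0.0919 and 0.0874, and 0.0122 and 0.0133 with clone as a block.

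**Figure D4:**
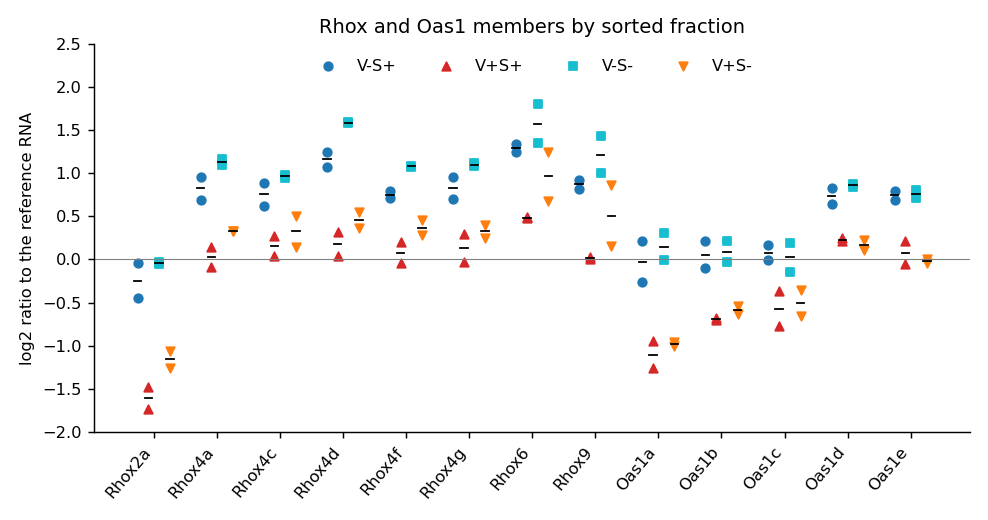
Log2 ratio to the reference RNA (y axis) of the 8 Rhox and 5 Oas1 members (x axis), with 1 symbol per clone in each of the 4 fractions and a short line at the mean. Values of V-S+ (circles) and V-S- (squares) lie above those of V+S+ (upward triangles) and V+S- (downward triangles) in most genes. The difference between V+S+ and V-S+ chose the members. Rhox6 and Rhox9 have 1 V+S- value near the V-S+ values.

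Of the Oas1 family 6 genes were named and 5 are members, of which Oas1a, Oas1e, Oas1d and Oas1b fell, beside 48.5% of all named members. Oas1a read -0.26 and 0.21 in V-S+, -0.95 and -1.26 in V+S+, -0.01 and 0.31 in V-S- and -1.0 and -0.96 in V+S-. Its V+ samples were all at least as low as -0.95, and the fall was -1.13 ± 0.19 (SE, adjusted p = 0.0188). Oas1e, Oas1d and Oas1b differed by -0.78, -0.69 and -0.67 (adjusted p = 0.013, 0.0123 and 0.0223). Oas1c read 0.17 and -0.01 in V-S+, -0.37 and -0.77 in V+S+, 0.19 and -0.14 in V-S- and -0.35 and -0.65 in V+S-, a difference of -0.52 ± 0.18 (SE, adjusted p = 0.0945). The named gene that is no member, Oas1g, fell as well.

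Some members are neighbours in the genome. Of the 132 symbols 120 were matched to RefSeq genes of GRCm38.p6, 15 of them through an older name, and from that annotation only order and chromosome were taken for the probes. On chromosome 5 Oas1e and Oas1c adjoin, as do Oas1a and Oas1d. On chromosome 7 the homeobox genes Obox6 and Crxos1 have 1 protein-coding gene between them, and on chromosome 14 the beta-defensin genes Defb30 and Defb42 adjoin. The gamma-crystallin genes Cryge and Crygc on chromosome 1 have 1 gene between them, and the alcohol dehydrogenase genes Adh1 and Adh4 on chromosome 3 have 2. Chromosome X held 16 of the 120, 13.3%, against 3.23% of the 1762 other named genes that matched; without the Rhox genes 8 members remain on X. These are counts over genes that share a cluster; no test was made, and adjacent pairs were not counted among other genes.

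Promoter windows, 250 bases before to 50 bases after the annotated start, were found in RefSeq for 88 members, 101 windows in all. Members and all 32851 windows were alike in composition, with a median of 6 CG pairs against 7 and a GC content of 53.7% against 52.7%. CCAAT, searched on both strands, was present in 50.5% of the member windows and 37.4% of all, GGGCGG in 37.6% and 35.7%, TATAAA in 12.9% and 13.6%, CACGTG in 8.91% and 7.15% and ATGCAAAT in 0.99% and 1.74%. The motifs were chosen after the windows were seen, no motif of the 5 is contained in another, and the Rhox4 copies count separately. Rhox4 windows are shown because these members lie in near-identical copies, and Rhox4d is not among those shown. Capitals mark ATTGG, the reverse complement of CCAAT, and CCGCCC, that of GGGCGG. In GRCm38.p6 the stretches lie at chrX:37265245-37265334 (plus strand, Rhox4a), chrX:37480247-37480336 (plus strand, Rhox4c), chrX:37607689-37607778 (minus strand, Rhox4f) and chrX:37651316-37651396 (minus strand, Rhox4g):
Rhox4a: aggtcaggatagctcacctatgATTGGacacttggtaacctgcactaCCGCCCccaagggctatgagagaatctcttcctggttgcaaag
Rhox4c: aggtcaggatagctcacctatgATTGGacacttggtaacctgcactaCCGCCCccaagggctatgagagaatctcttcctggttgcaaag
Rhox4f: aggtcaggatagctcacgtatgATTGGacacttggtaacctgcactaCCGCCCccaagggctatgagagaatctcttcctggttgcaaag
Rhox4g: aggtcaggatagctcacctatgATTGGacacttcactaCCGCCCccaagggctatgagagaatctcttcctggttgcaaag
Rhox4c equals Rhox4a in all 90 bases and Rhox4f in 89, while the Rhox4g stretch is 9 bases shorter and runs past its annotated start. A match of letters is a description and not a binding site.

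Of the oocyte, early embryo and germline list 37 of 57 genes were named and 17 are members. Of the 17 members 9 fell from V-S- to V+S-, with a median of -0.82, and of the 20 others 4 fell and 2 rose. The share that fell was 48.5% over all named members and 1.49% over all probes. No list was tested against these shares. With clone as a block 12 members and 9 of the others fell. Ccno, which encodes a cyclin family protein, read 0.36 and 0.70 in V-S+, -0.37 and -0.79 in V+S+, 0.79 and 0.92 in V-S- and -0.43 and -0.52 in V+S-. Its fall of -1.33 ± 0.17 (SE, adjusted p = 0.0124) was among the 5 largest of named members. Pramel6, a Prame-like gene of the early embryo, read 1.26 and 1.1 in V-S+, 0.46 and 0.08 in V+S+, 1.63 and 1.66 in V-S- and 0.71 and 0.35 in V+S-. It was highest in V-S- in both clones and fell by 1.12 ± 0.16 (SE, adjusted p = 0.0153).

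Crxos1, a homeobox gene of the egg and ES cells, read 1.40 and 1.40 in V-S+, 0.71 and 0.05 in V+S+, 1.60 and 1.46 in V-S- and 0.76 and 0.16 in V+S-. The V+ values of its clones were far apart, and it fell by 1.07 ± 0.26 (SE, adjusted p = 0.0403). Padi6, an oocyte peptidylarginine deiminase, read 0.94 and 1.37 in V-S+, 0.31 and 0.15 in V+S+, 1.23 and 1.60 in V-S- and 0.58 and 0.31 in V+S-, and fell by 0.97 ± 0.19 (SE, adjusted p = 0.0246). Obox6, an oocyte-specific homeobox gene, read 1.12 and 1.70 in V-S+, 0.22 and 0.09 in V+S+, 1.26 and 1.74 in V-S- and 0.77 and 0.60 in V+S-. In V+S- it stood 0.53 above V+S+, a fraction whose low values took part in the choice. Its difference of -0.82 from V-S- to V+S- had adjusted p = 0.0537, and 0.0147 with clone as a block. 1700013H16Rik, an X-linked gene of the list, fell by 1.19 ± 0.27 (SE, adjusted p = 0.0345). Tekt1, a tektin of cilia and sperm tails, and Hormad2, a protein of the meiotic chromosome axis, fell by 0.94 and 0.68. Aurkc, the meiotic Aurora kinase, differed by -0.89 (adjusted p = 0.0543), and 0.00978 with clone as a block.

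Of the receptors, ligands and signalling list 27 of 35 genes were named and 19 are members. Of these members 9 fell, with a median of -0.62, beside 48.5% of all named members. Of the 8 others 2 fell and 3 rose. With clone as a block 11 members fell, and of the others 2 fell and 4 rose. Kit, the receptor for stem cell factor, read 1.77 and 1.96 in V-S+, 1.19 and 0.42 in V+S+, 1.79 and 2.02 in V-S- and 1.07 and 0.80 in V+S-. From V-S- to V+S- Kit fell by 0.97 ± 0.25 (SE, adjusted p = 0.0445). Osm, the cytokine oncostatin M of the LIF family, read 0.16 and 0.68 in V-S+, -0.57 and -1.19 in V+S+, 0.08 and 0.53 in V-S- and -0.74 and -0.98 in V+S-. It turned from above to below the reference in both clones and fell by 1.16 ± 0.27 (SE, adjusted p = 0.0362). Cfc1, an EGF-CFC co-receptor for Nodal, read 1.41 and 1.12 in V-S+, 0.75 and 0.13 in V+S+, 1.45 and 1.13 in V-S- and 0.39 and 0.11 in V+S-. Its lowest value in either clone was that of V+S-, and it fell by 1.04 ± 0.23 (SE, adjusted p = 0.0326). Gja4, a connexin of the oocyte's gap junctions, fell by 0.66 (adjusted p = 0.0374). Itpka, a kinase of inositol trisphosphate, differed by -1.04 ± 0.33 (SE, adjusted p = 0.0715), and 0.0275 with clone as a block.

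Of the transcription regulators list, which holds none of the Rhox, Obox6 or Crxos1 homeobox genes, 17 of 26 genes were named and 5 are members, and Foxn4 and Tbx21 fell. The share that fell was 48.5% over all named members. The rule also left out zinc finger symbols by name. Foxn4, a forkhead factor, read 1.59 and 1.64 in V-S+, 0.85 and 0.12 in V+S+, 1.47 and 1.45 in V-S- and 0.68 and 0.21 in V+S-, and fell by 1.01 ± 0.25 (SE, adjusted p = 0.0408). Tbx21, the T-box factor T-bet, read 0.82 and 1.33 in V-S+, 0.26 and 0.31 in V+S+, 0.97 and 1.33 in V-S- and 0.28 and 0.32 in V+S-. Its 4 V+ values lay between 0.26 and 0.32, and it fell by 0.84 ± 0.18 (SE, adjusted p = 0.0311). Hesx1, a homeobox repressor, read 0.89 and 0.68 in V-S+, 0.13 and -0.25 in V+S+, 0.52 and 0.73 in V-S- and 0.19 and 0.02 in V+S-. The difference from V-S- to V+S- was -0.52 (adjusted p = 0.0627). Pax8 differed by -0.63 (adjusted p = 0.0749), and 0.00517 with clone as a block. Among the 12 other named regulators 2 fell and 1 rose. With clone as a block 3 members fell, and of the others 5 fell and 2 rose.

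**Figure D5:**
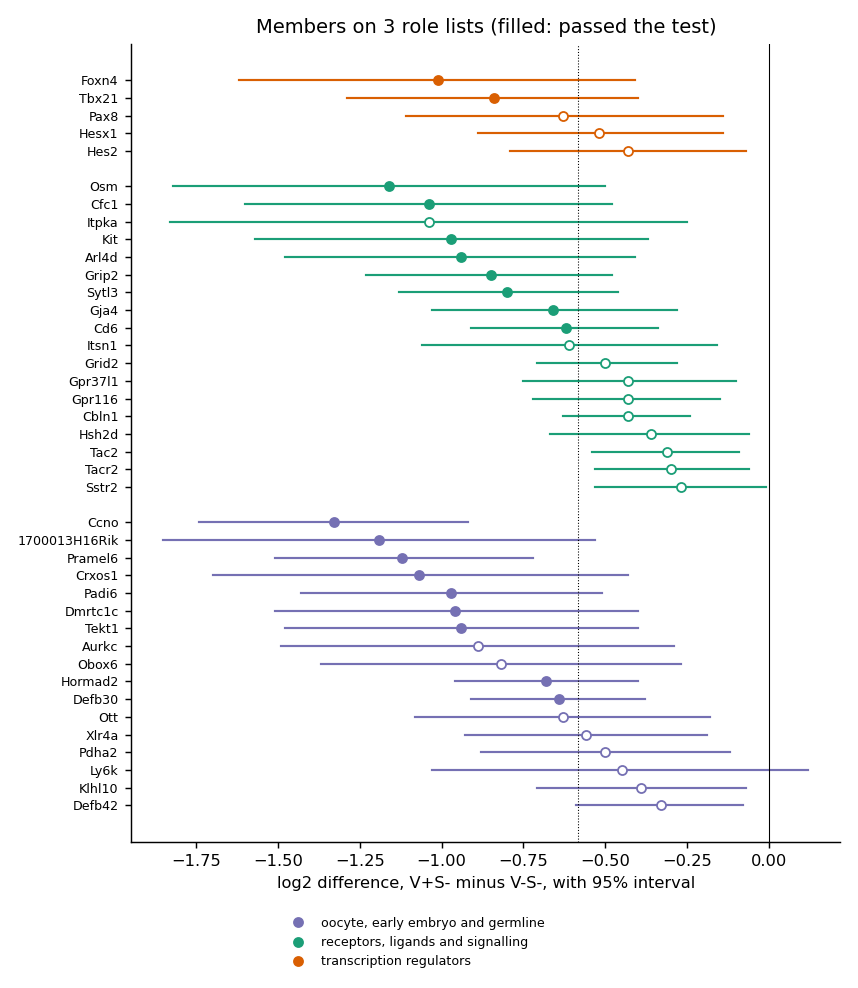
Log2 difference of V+S- minus V-S- with its 95% interval (x axis) for the members of 3 role lists, less 1 that is not reported here (y axis): transcription regulators in orange, receptors, ligands and signalling in green, and oocyte, early embryo and germline genes in violet. Filled points passed the test and open points did not; the dotted line marks a 1.5-fold fall. Every point lies below 0, and Ccno has the lowest at -1.33.

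Of the enzymes and transport list 28 of 33 genes were named and 21 are members. Of these members 10 fell, with a median of -0.64, beside 48.5% of all named members. Of the 7 others 1 fell. With clone as a block 11 members fell, and of the others 3 fell and 1 rose. Aqp3, a channel for water and glycerol, read 2.70 and 2.89 in V-S+, 1.83 and 0.93 in V+S+, 3.09 and 3.18 in V-S- and 2.25 and 1.57 in V+S-. It stood far above the reference in every sample and fell by 1.22 ± 0.33 (SE, adjusted p = 0.0492) from V-S- to V+S-. In V+S- it stood 0.53 above V+S+, a fraction whose low values took part in the choice. RP23-395H4.4, on the same list, fell by 1.16 ± 0.18 (SE, adjusted p = 0.0162). Bcat1, the cytosolic branched-chain aminotransferase, read 1.21 and 1.17 in V-S+, 0.58 and 0.39 in V+S+, 1.23 and 1.14 in V-S- and 0.36 and 0.15 in V+S-. Here V+S- was the lowest fraction in each clone, and Bcat1 fell by 0.93 ± 0.10 (SE, adjusted p = 0.0113). Cpt1a, which brings long-chain fatty acids into mitochondria, read -0.39 and -0.33 in V-S+, -0.98 and -1.94 in V+S+, -0.61 and -0.52 in V-S- and -1.24 and -1.69 in V+S-. Its clones differed widely in the V+ fractions, and the difference of -0.90 ± 0.30 (SE) had adjusted p = 0.0863, and 0.0225 with clone as a block.

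The alcohol dehydrogenases Adh4 and Adh1, neighbours on chromosome 3, did not show the same values in V+S-. Adh4 read 0.88 and 1.15 in V-S+, 0.34 and 0.13 in V+S+, 0.90 and 0.95 in V-S- and 0.23 and 0.24 in V+S-, and fell by 0.69 ± 0.11 (SE, adjusted p = 0.0178). Adh1 read -0.76 and -0.92 in V-S+, -1.27 and -1.29 in V+S+, -0.60 and -0.88 in V-S- and -0.63 and -0.96 in V+S-. The clones differed by -0.03 and -0.07 from V-S- to V+S-, a mean of -0.05 ± 0.14 (SE, adjusted p = 0.824) that is the smallest among named members, and its direction turned after median centring. The difference between the 2 genes was not tested.

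The contractile, cytoskeletal and lens list had 31 of 34 genes named and 11 members. Of these members 6 fell, with a median of -0.80, beside 48.5% of all named members. Of the 20 other named genes 13 rose and 5 fell, among the risers Acta2, Tnnc1 and Cryab. With clone as a block 8 members fell, and of the others 13 rose and 6 fell. Calb2, the calcium-binding protein calretinin, read 0.15 and 0.85 in V-S+, -0.55 and -0.65 in V+S+, 0.37 and 0.74 in V-S- and -0.54 and -0.51 in V+S-. The V+ values lay close together, and Calb2 fell by 1.08 ± 0.23 (SE, adjusted p = 0.0297). Myom2, a muscle M-band protein, read 0.05 and 0.21 in V-S+, -0.85 and -1.37 in V+S+, 0.29 and 0.33 in V-S- and -0.54 and -0.97 in V+S-, and fell by 1.06 ± 0.20 (SE, adjusted p = 0.0233). Krt23, a keratin, fell by 0.91, and Mip, the water channel of the lens, fell by 0.65. The gamma-crystallins Crygf, Cryge and Crygc differed by -0.62, -0.52 and -0.17 (adjusted p = 0.0618, 0.0248 and 0.483), and none passed both thresholds, since Cryge was under 1.5-fold; with clone as a block Crygf passed (adjusted p = 0.0223). Crygc had 0.61 in V+S- of clone 5.1, above its V-S- value of 0.48.

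Outside the lists 46 named members remained, of which 18 fell, and 26 with clone as a block. Over all named members the shares were 48.5% and 62.9%. Calcoco2, a receptor of selective autophagy, read 1.69 and 2.27 in V-S+, 0.96 and 0.34 in V+S+, 2.31 and 2.73 in V-S- and 1.34 and 0.85 in V+S-. It had the largest fall of the named members, -1.42 ± 0.31 (SE, adjusted p = 0.0303). OTTMUSG00000001246 read -0.20 and 0.21 in V-S+, -0.47 and -0.53 in V+S+, 1.17 and 1.38 in V-S- and 0.56 and 0.18 in V+S-. Its V-S- values were far above its V-S+ values, and V+S- was above V-S+ in clone 5.1 and about level with it in clone 16.1. From V+S+ to V+S- the value was 0.87 higher, the widest such step of named members, and low V+S+ values took part in the choice. Such a step exceeded 1.5-fold in both clones for 2 members and for 365 of all 29484 probes. The gene fell by 0.90 ± 0.18 (SE, adjusted p = 0.0255) from V-S- to V+S-. A430089I19Rik, named Pramel39 in RefSeq, read 0.05 and 0.06 in V-S+, -0.19 and -0.23 in V+S+, 0.84 and 1.37 in V-S- and 0.60 and 0.20 in V+S-. It was above V-S+ in both S- fractions of each clone, and its difference of -0.71 from V-S- to V+S- had adjusted p = 0.053, and 0.0225 with clone as a block. Over all members, V-S- exceeded V-S+ by more than 1.5-fold in both clones for 3, against 64 of all 29484 probes, on V-S+ arrays that took part in the choice. The smallest differences from V-S- to V+S- after Adh1 and Crygc were those of Cygb, Sstr2 and Klk1b1, at -0.22, -0.27 and -0.28, none past the test.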

How the data were processed

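RNA of 8 sorted samples was hybridised with a Cy5-labelled reference to 2-colour Agilent arrays of 60-base probes. The authors deposited scanner files with the intensity of each spot (Agilent Feature Extraction), each array scanned 2 times, and log10 values in a table whose centring is not given in the sources used here; log10 differences between samples of a probe chose the members. The flag for a signal well above background, also deposited by the authors, was used as written. Probes were named from the study's list of called probes, of which 1998 rows were used. The array design number in the file headers differs from that in the methods.

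Mean signals and median backgrounds were corrected with normexp (offset 50) and normalized by loess in limma 3.58.1 (R 4.3.3). Control spots were left out, outlier spots treated as missing, scans averaged. A probe was tested if some fraction had it well above background in each of its files and no sample lacked a value, 29484 in all, every member among them. The model (lmFit, eBayes) had fraction as its only term, with Benjamini-Hochberg adjustment over all probes. Clone pairs the samples, since the 4 fractions of a number come from the same line; deviations of a clone correlated between fractions with r of 0.588 to 0.811 across probes. The scripts were tested on simulated data. The number of arrays limits the precision. Alternatives were other background corrections, scalings, filters, single scans, the authors' values, a clone block, a fit of only V-S- and V+S-, and each sample left out.

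The members, the role lists and the marker lists were chosen with earlier results of these data known. Named were members on a role list, the 5 largest and 5 smallest falls from V-S- to V+S-, the 5 largest steps up from V+S+ to V+S-, and the 3 named probes on either side of the cut. Of the 367 members, 3 unnamed probes were below background throughout V+S- and above it throughout V-S-, so that only a lower bound exists for them; no fold of theirs is given. The values of 1 listed member are not reported here; it stays in the counts.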

Additional observations from a re-analysis of the deposited data

How the results depend on the processing

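The count of 65 members that fell from V-S- to V+S- was 103 by Feature Extraction's processed signals and 114 by the authors' values (each with 1 member higher) and became 139 with clone as a replicate block; a block in a fit of only the V-S- and V+S- samples, chosen after seeing the data, gave 142. Leaving out a sample gave between 0 and 91 members, with 0 calls at the samples named above. The count of 440 falls over all probes was 896 with processed signals, 139 after median centring, 890 with Cy3 alone, 980 with the replicate block and 1016 with the added block, and between 0 and 660 with a sample left out. The members' median of -0.48 became -0.99 with processed signals and -0.99 with the authors' values, and lay between -0.58 and -0.32 with a sample left out. The 85 members lower by more than 1.5-fold in V+S+ in both clones became 367 with processed signals and 367 with the authors' values, where the choice of members by that cut fixes the count. Adh1 turned to 0.06 after median centring, 0.09 without V-S- of clone 5.1 and 0.11 without V+S- of clone 16.1, with a range of -0.22 to 0.11 over left-out samples. Crygc ranged from -0.36 to 0.03, turning without V+S- of clone 16.1; of the 91 members named by rule and run under the alternatives, no other changed direction. The cause of these differences was not tested. Signal to background, a median of 2.36 to 2.87 per sample, limits what dim members can show.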
